A study of Mus musculus with 12 samples.

Results

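The genes described here encode 45 core proteins of the spliceosome, chosen by name as components of its small nuclear ribonucleoproteins (snRNPs) and of the complexes that join them. They were grouped as the Sm ring (8 genes), U1 snRNP (4), U2 snRNP and U2AF (13), U4/U6 di-snRNP (3), U5 snRNP (5), tri-snRNP and B complex (4), minor U11/U12 snRNP (4), and Prp19 complex and second step (4). All 45 were found among the 25091 genes and repeats that the quantification of RefSeq transcripts and repeats gave after summing by gene. Of these 45, 43 passed the filter on low counts in the RNA-seq libraries and 45 passed it in the RNA immunoprecipitation (RIP-seq) libraries.

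The spliceosome removes introns from nuclear pre-mRNA. U1 snRNP recognises the start of the intron, U2 snRNP and the U2AF heterodimer recognise its far end, and the U4/U6.U5 tri-snRNP then joins and is rearranged into the catalytic machine together with the Prp19 complex. A ring of Sm proteins is the shared base of the U1, U2, U4 and U5 particles, while U6 carries a ring of the related LSM proteins. The cytoplasmic LSM1 ring shares most of its subunits with the U6 ring and takes part in decapping and decay of mRNA. The mature oocyte and the early zygote are nearly silent in transcription, so an mRNA level there reflects largely the maternal store and its decay. Decay and new synthesis were not measured apart in these data.

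The study asked what LSM1 does in the mouse zygote. Zygotes came from B6D2F1 females of 8 to 10 weeks that had received pregnant mare serum gonadotropin and, 48 h later, human chorionic gonadotropin (hCG), and were mated. They were collected 18 to 20 h after hCG and microinjected according to the labels. The RNA-seq set held 2 Lsm1_KD libraries from zygotes given a small interfering RNA (siRNA) against Lsm1 and 2 Ctrl libraries from zygotes given a scrambled siRNA.

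The RIP-seq set held 8 libraries, 2 in each of 4 groups. FLAG zygotes were injected with mRNA for LSM1 carrying a 3XFlag tag, and Ctrl zygotes, according to their treatment label, with Lsm1 mRNA without the tag. Each lysate gave an Input library and, after anti-FLAG M2 affinity gel, an IP library. The titles call the Ctrl libraries IgG, which their labelled affinity gel does not match. Lsm1 stood at 18.3 and 18.4 CPM (counts scaled to library size times a TMM factor) in Ctrl_Input against 10838 and 16749 CPM in FLAG_Input. No excess of Lsm1 mRNA was therefore seen in the libraries labelled as injected with the untagged mRNA. By the labels the zygotes of every group were thus superovulated, mated and microinjected. The published methods instead describe siRNA injection into germinal vesicle oocytes followed by maturation and fertilization in vitro, so the stage at which Lsm1 was lowered is uncertain. Nothing in the labels ties a library to single animals, so that p-values measure the spread between these libraries.

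Estimated counts in the RNA-seq libraries totalled 4636492 to 13968315 and in the RIP-seq libraries 9865512 to 31586450. The knockdown itself was measured first. Lsm1 stood at 63.6 and 71.0 CPM in Lsm1_KD and at 143 and 147 CPM in Ctrl, a log2 fold change of −1.10 ± 0.22 (SE) with an adjusted p of 0.012 by edgeR's quasi-likelihood test. The oocyte and zygote markers were present in every group, with a summed level of 13923 to 14034 TPM (a level corrected for transcript length and library size) in Lsm1_KD and 17778 to 17899 TPM in Ctrl, and none of the 10 was at 0. Of 10 cumulus and granulosa markers, 6 had no count in either RNA-seq group, and the list summed to 1.93 to 4.17 TPM in Lsm1_KD and 2.80 to 4.07 TPM in Ctrl. Of 6 sperm and spermatid markers, 4 had no count in Lsm1_KD or in Ctrl, and the list summed to 28.1 to 39.9 TPM in Lsm1_KD and 10.6 to 11.6 TPM in Ctrl. The list of 2-cell genome activation markers summed to 45.9 to 59.9 TPM in Lsm1_KD and 152 to 221 TPM in Ctrl. The part of these lists in the results was not tested. In these pooled libraries fewer cells of a type and less RNA per cell cannot be told apart. One library differed from the rest in its repeats and scaling. In the first FLAG_IP library repeats took 12.7% of the counts, where the other 11 gave 0.102 to 2.63%, and its TMM scaling factor was 1.87 where the others lay at 0.872 to 1.06. The second FLAG_IP library stood apart in Lsm1, at 139288 CPM against 5993 CPM in the first. Beside the FLAG results, values without the first FLAG_IP library are given. The second is not taken to be the sounder of the 2.

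The siRNA sequence listed with the study's oligonucleotides, which has the letters of the mRNA strand, is shown because it fixes which transcripts could pair with the siRNA. Capitals mark the 7 bases that pair with bases 2 to 8 of the complementary strand.
Lsm1 siRNA: gatcaatttgcTAACTTAg
Its 19 bases matched 1 gene in full, Lsm1 on chromosome 8 (GRCm38.p6, plus strand), where the site crosses a junction in the coding sequence, with 10 bases in exon 2 at positions 25792216 to 25792225 and 9 bases in exon 3 at 25793677 to 25793685. None of the 45 member transcripts held the full match. The 7 bases alone occurred in 2 of the 45, Snrpb2 and Sf3b1 (4.44%), and in 12.5% of the 11134 tested genes with a sequence. None of the members that rose held them.

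In control zygotes the levels of the members spanned a wide range. The highest was Snrpg, the shortest transcript of the Sm ring, with 2088 and 2105 TPM in the Ctrl libraries. Snrnp27, a protein of the tri-snRNP, followed with 901 and 704 TPM, and Snrpb2, which binds U2 snRNA, with 879 and 715 TPM. These last 2 genes overlapped in Ctrl, also with Snrpd1 (835 and 678 TPM) and Snrpe (820 and 631 TPM). The order of these genes below Snrpg was not resolved. The lowest was Snrnp35, a U11/U12 protein, listed at 0 and 0.333 TPM. Snrnp25 of the same particle stood at 2.67 TPM in the first Ctrl library and at 0 in the second, and Prpf4 of the U4/U6 particle at 1.29 and 2.59 TPM. The order was similar in the RIP-seq inputs, made with another kit, with a Spearman rho of 0.75 over the 45 members between the mean TPM of Ctrl and of Ctrl_Input, a description across genes. Side by side, Snrpg stood at 104 and 97.7 TPM in Ctrl_Input and Snrpe at 169 and 179 TPM, where the RNA-seq Ctrl libraries gave 820 and 631 TPM for Snrpe.

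Within the Sm ring, 2 genes were at the edge of detection while others were abundant. Snrpb, the somatic SmB gene, had 12 and 11 estimated counts in Lsm1_KD and 1 and 12 in Ctrl. Snrpn, its paralog SmN, stood at 40.3 and 34.0 CPM in Ctrl. Snrpd2 had 5 and 13 estimated counts in Lsm1_KD and 12 and 4 in Ctrl and was not tested, as was Snrnp35, with at most 2 estimated counts in any of the 4 libraries.

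The comparison of Lsm1_KD with Ctrl asked how the mRNA levels of the members changed when Lsm1 was reduced. Of the 43 members tested, 12 were higher and 1 was lower at an adjusted p under 0.05 in edgeR's quasi-likelihood test over 11335 features. Among all features 6.45% were called higher and 4.56% lower. The shares among the members were 27.9% and 2.33%. With limma on log2(TPM + 1), which had its own filter on low TPM, 8 members were called higher and 1 lower. Over the features limma kept, 384 were called higher and 699 lower, where edgeR called 731 and 517 of 11335. The number of features limma kept is not given here, so its calls are not read as shares. Of the 12, 9 also exceeded a log2 fold change of 1, a count that 5.4% of all features met, and no member fell past −1, against 2.75% of all features. The median log2 fold change was 0.32 over the members and 0.01 over all features. Both Lsm1_KD libraries lay above both Ctrl libraries for 21 of the 43 members (29.3% of all features) and below for 8 (28.6% of all features).

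The Sm ring held 5 of the 12 rises. The median over its 7 tested genes was 1.42 on the log2 scale. Snrpe, which encodes SmE, had 416 and 608 CPM in Lsm1_KD and 107 and 89.8 CPM in Ctrl. The groups did not overlap, and the log2 fold change was 2.38 ± 0.24 (SE, adjusted p = 0.0010). Snrpf, which encodes SmF, had 270.0 and 381 CPM in Lsm1_KD and 89.7 and 59.5 CPM in Ctrl, again without overlap, with a log2 fold change of 2.12 ± 0.27 (adjusted p = 0.0018). Snrpg, which encodes SmG, had 673 and 804 CPM against 187 and 209 CPM, a log2 fold change of 1.90 ± 0.20 (adjusted p = 0.0011). SmE, SmF and SmG assemble together as a trimer before they enter the ring.

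Snrpd3, which encodes SmD3, had 109 and 160.0 CPM in Lsm1_KD and 54.3 and 46.0 CPM in Ctrl. Its log2 fold change was 1.42 ± 0.26 (adjusted p = 0.0084). Snrpd1, which encodes SmD1, had 540.0 and 575 CPM in Lsm1_KD and 234 and 202 CPM in Ctrl, with a log2 fold change of 1.36 ± 0.19 (adjusted p = 0.0029). In both genes every Lsm1_KD library lay above every Ctrl library. Snrpn went the other way without passing the test, with 21.6 and 18.6 CPM in Lsm1_KD against 40.3 and 34.0 CPM in Ctrl, a log2 fold change of −0.89 ± 0.30 (adjusted p = 0.084). The paralog Snrpb, at the counts above, had a log2 fold change of 1.14 ± 1.43 (adjusted p = 0.66), a value its counts cannot resolve.

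Some Sm genes share sequence with their neighbours. Of the 31-base words of the main Snrpf transcript, 77.0% also occurred in other genes, chiefly on the opposite strand in Ccdc38, which was measured at 24.5 and 23.3 CPM in Lsm1_KD and 17.5 and 13.5 CPM in Ctrl (log2 fold change 0.62, adjusted p = 0.28). For Snrpn the share was 96.1%, chiefly on the same strand in Snhg14, which had at most 2.48 CPM in any RNA-seq library. How the estimated counts were divided between such genes is uncertain. Snrpd1, Snrpd3, Snrpe and Snrpg shared no such word with another gene's main transcript.

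**Figure D1:**
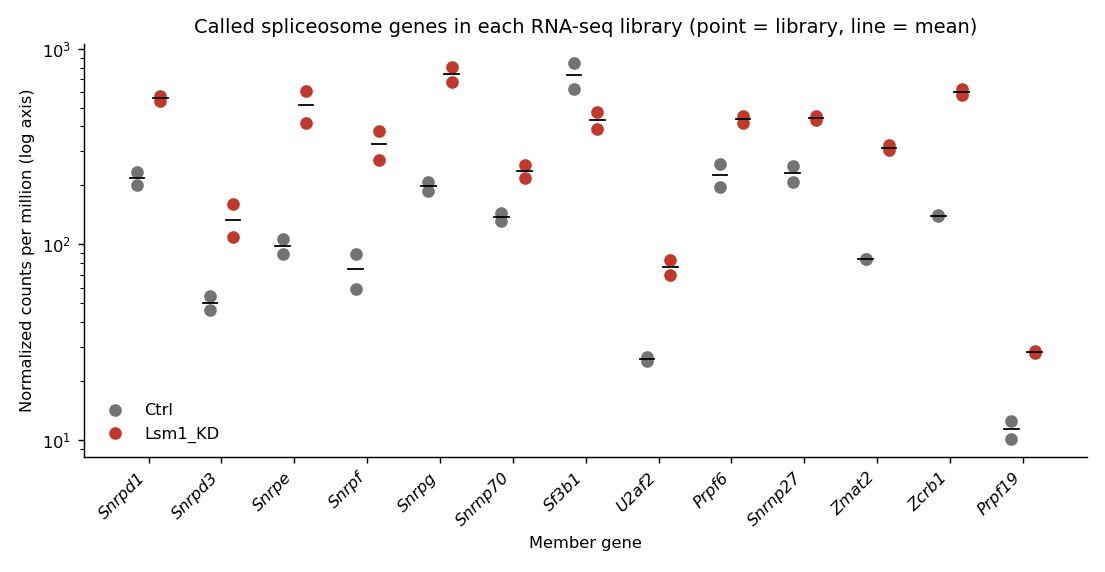
Normalized CPM on a log axis of the 13 members called in the RNA-seq comparison, with one point for each of the 2 Ctrl and 2 Lsm1_KD libraries and a line at each group's mean. For all 13 genes the groups do not overlap, with Sf3b1 the gene that is lower in Lsm1_KD.

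The promoters of the 3 Sm genes with the largest rises are shown, and their part in these rises was not tested. Each is the 150 bases before the RefSeq transcription start (GRCm38.p6), written along the gene's strand, with capitals for 3 motifs searched on either strand. These were CCAAT (the box bound by NF-Y), the TATA box spelled TATAAA, and an ETS site spelled CCGGAAG. Other spellings were not searched.
Snrpe: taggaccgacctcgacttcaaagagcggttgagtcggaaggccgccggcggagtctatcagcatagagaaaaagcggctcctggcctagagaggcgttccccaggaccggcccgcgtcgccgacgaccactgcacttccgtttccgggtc
Snrpf: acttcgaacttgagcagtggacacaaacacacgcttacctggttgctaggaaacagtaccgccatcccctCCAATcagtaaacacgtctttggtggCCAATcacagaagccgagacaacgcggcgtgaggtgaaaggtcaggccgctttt
Snrpg: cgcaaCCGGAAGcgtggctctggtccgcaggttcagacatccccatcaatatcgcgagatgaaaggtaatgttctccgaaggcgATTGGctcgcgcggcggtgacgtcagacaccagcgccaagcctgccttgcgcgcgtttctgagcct
The Snrpe window is chr1:133610281-133610430 on the minus strand, the Snrpf window chr10:93589659-93589808 on the minus strand and the Snrpg window chr6:86371390-86371539 on the plus strand. CCAAT on either strand was found in the Snrpf and Snrpg windows, CCGGAAG in that of Snrpg, and none of the 3 motifs in that of Snrpe.

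Promoters were matched for 36 of the 45 members and searched over 250 bases before the start. The ETS site CCGGAAG was present in 13 of the 36 (36.1%). It was present in 14.5% of the promoters of the 8963 matched features tested in RNA-seq and in 7.16% of all 27025 promoters. CCAAT was present in 14 of 36 (38.9%) against 37.3% of those tested features and 34.4% of all promoters, and TATAAA in 3 of 36 (8.33%) against 6.66% and 13.0%. No motif contains another, and the matches are a description of these windows. The members with CCGGAAG included 7 of the U2 group, namely Sf3a1, Sf3a2, Sf3a3, Sf3b2, Sf3b3, Sf3b6 and Snrpb2.

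Of the 4 U1 snRNP genes, 1 rose. Snrnp70, which encodes the U1-70K protein, had 219 and 253 CPM in Lsm1_KD and 145 and 131 CPM in Ctrl. The log2 fold change was 0.77 ± 0.20 (adjusted p = 0.037), and the call was lost in 6 of 13 alternatives. Snrpc, which encodes another U1 protein, had a log2 fold change of 1.66 ± 0.74 on 20 to 85 estimated counts a library and did not pass (adjusted p = 0.18). Snrpa and Prpf39 had log2 fold changes of −0.16 and 0.08.

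Of the 13 genes of U2 snRNP and U2AF, 1 rose, 1 fell and 11 were not called, and the median was 0.02. U2af2, the large U2AF subunit that binds the polypyrimidine tract, had 70.1 and 83.2 CPM in Lsm1_KD and 26.6 and 25.3 CPM in Ctrl. Its log2 fold change was 1.56 ± 0.26 (adjusted p = 0.0060) and was called in all 13 alternatives. Its partner U2af1, which contacts the AG at the end of the intron, had 20.9 and 21.9 CPM against 39.7 and 25.5 CPM (log2 fold change −0.61 ± 0.33, adjusted p = 0.26). With the trend on transcript length taken out, U2af1 was called lower at −1.23 (adjusted p = 0.038).

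Sf3b1, the large SF3B subunit at the branch point, had 389 and 477 CPM in Lsm1_KD and 620.0 and 846 CPM in Ctrl. The libraries did not overlap, and Sf3b1 decreased by 0.76 on the log2 scale (SE 0.21, adjusted p = 0.048). It is 1 of the 2 members whose transcript held the siRNA seed match, and the part of that match in the result was not tested. The call was lost in 5 of 13 alternatives, among them every fit without 1 library except that without the first Ctrl library. Sf3a2 had the largest value of the group, 10.2 and 9.46 CPM against 2.69 and 3.03 CPM (log2 fold change 1.78 ± 0.57). It missed the threshold in edgeR's test at an adjusted p of 0.073, and DESeq2 called it higher with and without transcript length factors.

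None of the 3 U4/U6 di-snRNP genes was called by edgeR, DESeq2 or limma, and 0 had an unadjusted p under 0.05 in edgeR. The largest value was that of Prpf4, with 6.01 and 7.17 CPM in Lsm1_KD and 2.83 and 5.92 CPM in Ctrl (log2 fold change 0.61 ± 0.64, adjusted p = 0.59). Of the 5 U5 snRNP genes, 1 rose. Prpf6, which bridges U5 to U4/U6 in the tri-snRNP, had 417 and 455 CPM in Lsm1_KD and 197 and 256 CPM in Ctrl, a log2 fold change of 0.94 ± 0.20 (adjusted p = 0.018), which was not called in 3 of 13 alternatives. Prpf8 and Snrnp200, the scaffold and the helicase at the heart of U5, had log2 fold changes of −0.76 and −0.59 and did not pass (adjusted p = 0.13 and 0.19).

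Of the 4 tri-snRNP and B complex genes, 2 rose. Zmat2, a zinc finger protein that joins at the B complex stage, had 321 and 303 CPM in Lsm1_KD and 84.1 and 83.9 CPM in Ctrl (log2 fold change 1.89 ± 0.20, adjusted p = 0.0011). Snrnp27 had 434 and 455 CPM against 252 and 209 CPM, with a log2 fold change of 0.95 ± 0.19 (adjusted p = 0.014), and lost its call in 4 of 13 alternatives. The paralogs Prpf38a and Prpf38b had log2 fold changes of 0.12 ± 0.29 and 0.41 ± 0.20, neither past the threshold (adjusted p = 0.83 and 0.22).

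Of the 3 tested U11/U12 genes, which serve the minor class of introns, 1 rose. Zcrb1, an RNA-binding protein of that particle, had 581 and 621 CPM in Lsm1_KD and 141 and 139 CPM in Ctrl, a log2 fold change of 2.11 ± 0.19 and an adjusted p of 0.00095, the smallest among the members. Snrnp48 had a log2 fold change of −0.38 ± 0.29, and Snrnp25, on at most 27 estimated counts a library, one of 2.96 ± 1.31, which did not pass (adjusted p = 0.18). In the Prp19 complex and second step group Prpf19, a ubiquitin ligase, rose from 12.5 and 10.2 CPM in Ctrl to 27.8 and 28.5 CPM in Lsm1_KD (log2 fold change 1.30 ± 0.35, adjusted p = 0.038). Its call was lost in 6 of 13 alternatives, and Cdc5l, Bcas2 and Prpf18 were not called.

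**Figure D2:**
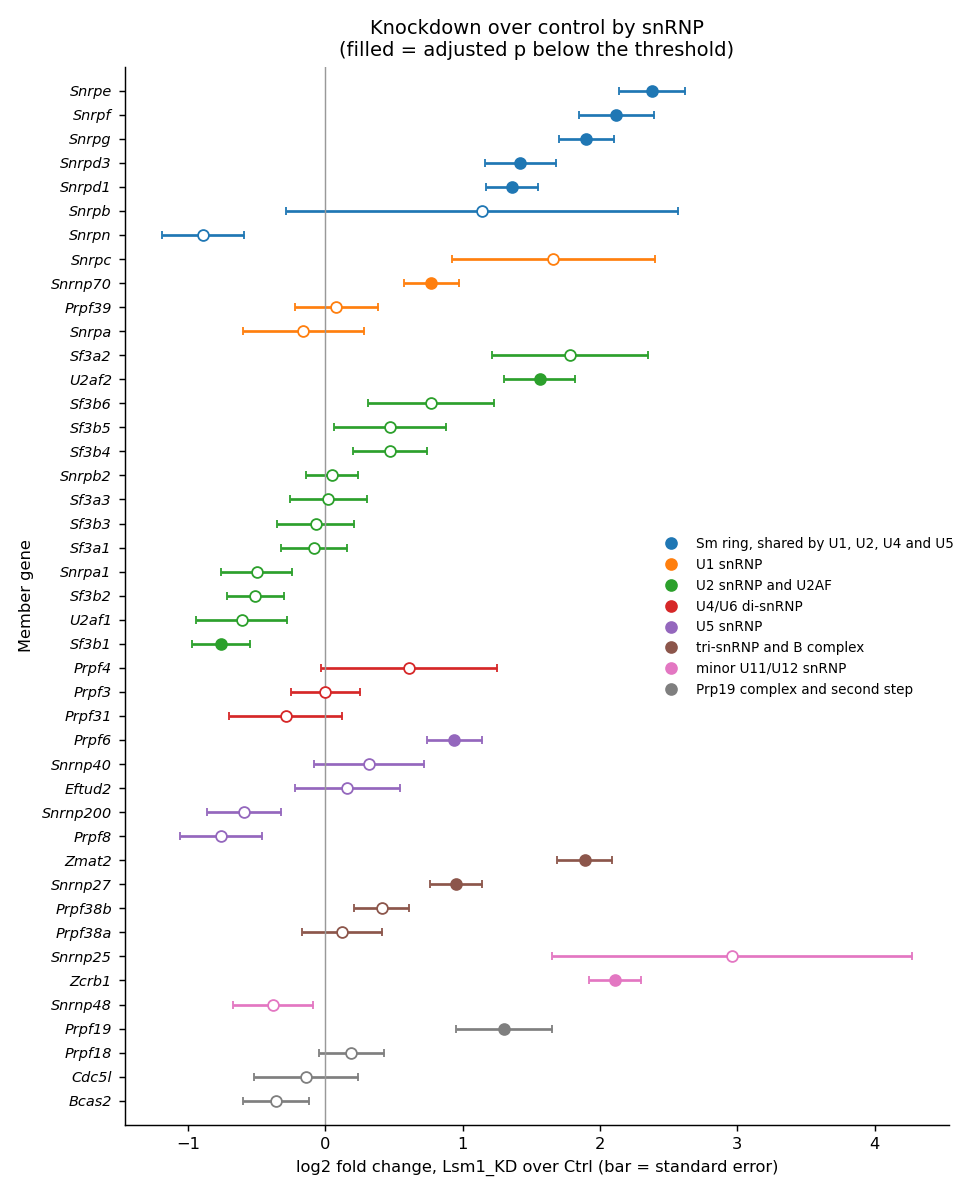
Log2 fold change of Lsm1_KD over Ctrl for the 43 tested members, with a bar of 1 standard error, coloured by snRNP group and filled where the adjusted p was under 0.05. The called Sm genes lie between 1.36 and 2.38, and Snrpn of the Sm ring, not called, at −0.89. U2 and U5 genes also lie on both sides of 0.

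The members that rose were short. Their median transcript length was 838 nt (range 393 to 6164), against 1765 nt for the 30 members not called and 2914 nt for all tested genes. Across all features the log2 fold change also moved with length. Its median was 1.31 over 111 features under 500 nt, 0.89 over 726 of 500 to 1000 nt, 0.10 over 2487 of 1000 to 2000 nt, and −0.11 over 3448 of 4000 nt or more. The share called higher was 24.3% under 500 nt and 21.9% from 500 to 1000 nt.

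Members of the same lengths were set beside these values. From 500 to 1000 nt, 5 of 9 members rose and their median was 1.42, and under 500 nt both members, Snrpe and Snrpg, rose. From 1000 to 2000 nt 1 of 13 members rose, against 6.47% of all features of that length, with medians of 0.12 and 0.10. From 2000 to 4000 nt 3 of 11 members rose, against 5.37% of all features of that length, namely U2af2, Prpf6 and Zmat2. At 4000 nt or more 1 of 8 members rose and 1 fell, against 4.03% and 5.8% of all features. The medians there were −0.08 over the members and −0.11 over all features. Over the 43 members the Spearman rho between fold change and length was −0.54, and over all features −0.18, both descriptions across genes that share the same 4 libraries.

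When the trend on length was taken out of each library, 8 of the 12 members remained called higher. Over all features the number called higher went from 731 to 556. Those lost were Snrpd1 (log2 fold change 0.63, adjusted p = 0.056), Snrpd3 (0.34, adjusted p = 0.38), Snrpg (0.39, adjusted p = 0.23) and Snrnp27 (0.22, adjusted p = 0.48). Snrpe and Snrpf kept log2 fold changes of 1.09 and 1.36 (adjusted p = 0.012 and 0.0076), so that 2 of 5 Sm calls remained. Zmat2 (1.88), U2af2 (1.54), Prpf19 (1.39), Zcrb1 (1.38), Prpf6 (0.97) and Snrnp70 (0.70) also remained called. Whether the trend on length arose in the zygotes or in the libraries was not tested.

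**Figure D3:**
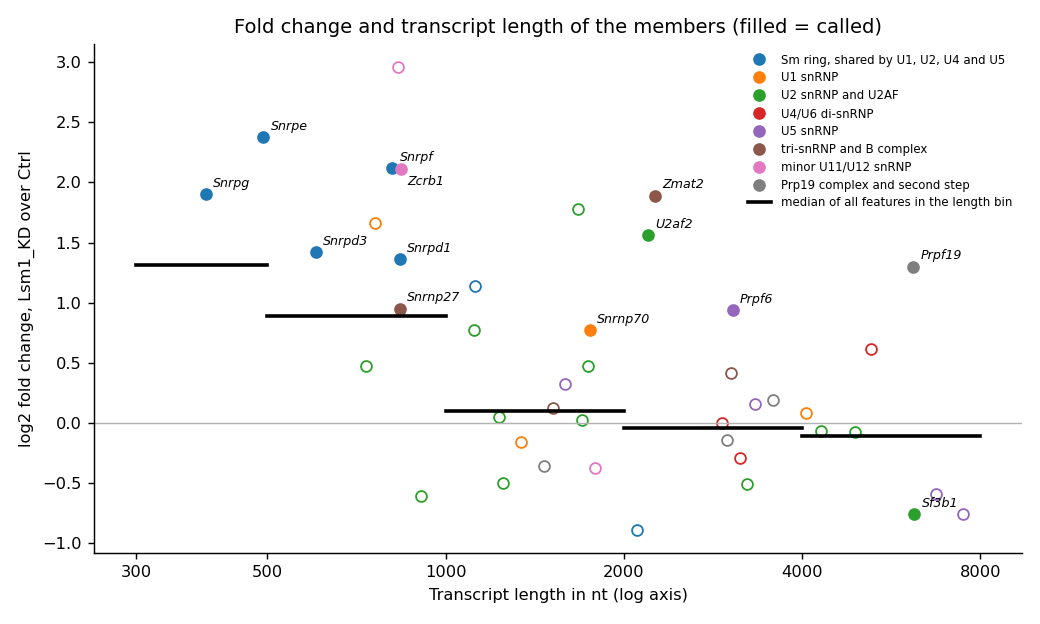
Log2 fold change of Lsm1_KD over Ctrl against transcript length on a log axis for the 43 tested members, filled where called, with black bars at the median of all features in 5 length bins. The bin medians fall from 1.31 under 500 nt to −0.11 at 4000 nt or more, and Zmat2, U2af2, Prpf6 and Prpf19 lie above the bars of longer transcripts.

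Other genes of the pathway were listed alongside, 86 of them measured and 79 tested. Of these, 13 were higher (16.5%) and 4 lower (5.06%), and their median was 0.14. The U6 LSM ring, whose subunits are largely shared with the LSM1 ring, had 4 of 6 tested genes higher and a median of 1.49. Lsm5 had 14.7 and 36.0 CPM in Lsm1_KD and 3.17 and 3.58 CPM in Ctrl (log2 fold change 2.93 ± 0.52, adjusted p = 0.0078), and Lsm2 had 45.8 and 51.2 CPM against 23.5 and 8.13 CPM (1.60 ± 0.43, adjusted p = 0.041). These are short transcripts too, of 501 and 871 nt.

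Of 26 other snRNP proteins tested, 3 were higher. Smndc1, an SMN-related U2 factor, had a log2 fold change of 1.24 ± 0.25 (adjusted p = 0.014) and Ddx42, an SF3B-associated helicase, one of 0.94 ± 0.23 (adjusted p = 0.027). Of 8 other minor spliceosome genes 2 were higher, Zrsr2, which reads the end of minor introns (1.68 ± 0.24, adjusted p = 0.0032), and Txnl4b (2.22 ± 0.56, adjusted p = 0.032).

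Among 25 other Prp19 and catalytic genes 3 were higher and 1 lower. Mfap1b had a log2 fold change of 0.85 ± 0.19 (adjusted p = 0.020) and Cwc15 one of 0.76 ± 0.21 (adjusted p = 0.043). Smu1, a B complex protein, had 177 and 145 CPM in Lsm1_KD and 514 and 597 CPM in Ctrl (log2 fold change −1.79 ± 0.20, adjusted p = 0.0014), where the largest called fall of a member was that of Sf3b1. Of 14 snRNP assembly genes tested, 1 was higher and 2 were lower. Smn1, whose product loads the Sm ring, was higher (1.19 ± 0.28, adjusted p = 0.024). Its partners Gemin5 (−2.66 ± 0.75, adjusted p = 0.046) and Strap (−1.09 ± 0.24, adjusted p = 0.021) were lower. Gemin5 was at low levels, with 1.78 and 0.919 CPM in Lsm1_KD and 10.4 and 5.92 CPM in Ctrl. The 3 small nuclear RNA genes measured, Rnu6, Rnu11 and Rnu12, had at most 0.459 CPM in the RNA-seq libraries and were not tested.

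Several members had more than 1 RefSeq transcript. Of the U2af1 counts, NM_024187 took 79.8% in Lsm1_KD and 63.9% in Ctrl, and of the U2af2 counts NM_133671 took 72.3% and 88.1%. For Snrpa, NM_001046637 took 68.9% in Lsm1_KD and 63.5% in Ctrl but 2.70% in Ctrl_Input. These shares are sums over 2 libraries of estimated counts and were not tested.

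The RIP-seq inputs asked whether the injected mRNA changed the members before any precipitation. No member was called by edgeR between FLAG_Input and Ctrl_Input, nor by DESeq2 or limma, and 0 had an unadjusted p under 0.05. The same edgeR fit did not call Lsm1 (log2 difference 9.55, unadjusted p = 0.0045, adjusted p = 1), so the absence of calls says nothing about the members. Among all 18972 features 0% were called by edgeR, 176 had an unadjusted p under 0.05, and DESeq2 and limma each called 1. The member log2 differences ran from −0.58 to 0.77, with a median of −0.15 against 0.02 over all features.

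In the LSM1-FLAG immunoprecipitate most members were lower than in the input. Of 45 members 33 had a log2 ratio of FLAG_IP over FLAG_Input below 0, and the median was −0.73, against 0.49 over all features. All features included 6479 with a mean input under 1 CPM, whose median was 3.75, and 1 member lay there. At inputs of 100 to 1000 CPM the medians were −0.90 over members and −0.97 over all features. From 10 to 100 CPM they were −0.25 and −0.61. By edgeR 3 members were called higher and 3 lower, where 21% of all features were called higher and 5.48% lower. With limma on log2(TPM + 1) the members called were 1 higher and 19 lower, against 4.47% and 18.1% of the 14310 features it tested. With the lysate as a block, since each IP and Input pair came from 1 lysate, 2 members were called higher and 6 lower, and 21.9% and 9.98% of all features. Without the first FLAG_IP library 1 was called higher and 7 lower (10.5% and 9.48% of all features), 33 of 45 ratios lay below 0, and the member median relative to that of all features went from −1.22 to −0.45. Without the second FLAG_IP library, calls in both directions were more numerous, over members and over all features alike. Without any 1 of the other 6 RIP-seq libraries, calls were fewer over members and over all features. The relative member median was then −1.68 to −1.56.

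The genes called lower were Snrpd3, Snrpe and Snrpa1. Snrpd3 had 70.0 and 67.9 CPM in FLAG_Input and 15.2 and 32.9 CPM in FLAG_IP, a log2 ratio of −1.52 (adjusted p = 0.020, and −1.10 with an adjusted p of 0.011 without the first FLAG_IP library). Snrpe had 39.8 and 43.5 CPM in FLAG_Input and 11.6 and 25.1 CPM in FLAG_IP (−1.19, adjusted p = 0.036, and −0.77 with an adjusted p of 0.044 without the first FLAG_IP library). Snrpa1, a U2 protein that partners Snrpb2, had 49.9 and 50.6 CPM in FLAG_Input and 23.0 and 26.4 CPM in FLAG_IP (−1.02, adjusted p = 0.030, and −0.96 with an adjusted p of 0.015 without it). Of 17 alternatives, Snrpd3 lost its call in 2, Snrpe in 7 and Snrpa1 in 8. In each of the 3 genes the IP libraries lay below the Input libraries. The control lysates gave log2 ratios of −0.49, −1.01 and −0.31 for Snrpd3, Snrpe and Snrpa1, none past the threshold (adjusted p = 0.61, 0.18 and 0.70). Sf3a1 (−1.49) and Sf3a2 (−1.46), subunits of the U2 SF3A complex, were among the 3 lowest ratios and did not pass (adjusted p = 0.075 and 0.056). They were called lower without the first FLAG_IP library (−0.97 and −0.81, adjusted p = 0.011 and 0.033).

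The genes called higher were Cdc5l, Prpf4 and Snrnp48. Cdc5l, the Myb-like DNA-binding partner of Prp19, had 18.1 and 56.1 CPM in FLAG_Input and 169 and 560.0 CPM in FLAG_IP, a log2 ratio of 3.30 (adjusted p = 0.013). It was 3.88 without the first FLAG_IP library (adjusted p = 0.0020), 2.20 without the second (adjusted p = 0.0017) and 2.70 without the first FLAG_Input library, where the call was lost (adjusted p = 0.13). The same gene was high in the control precipitate, with 64.6 and 31.2 CPM in Ctrl_Input and 420.0 and 291 CPM in Ctrl_IP, a log2 ratio of 2.89 (adjusted p = 0.067 by edgeR). The difference between the FLAG and Ctrl ratios of Cdc5l was 0.41 (adjusted p = 0.90), and it was 1.04 without the first FLAG_IP library and −0.70 without the second (adjusted p = 0.76 and 0.47).

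Prpf4 had 13.5 and 12.3 CPM in FLAG_Input and 34.3 and 21.1 CPM in FLAG_IP (log2 ratio 1.10, adjusted p = 0.045). Without the first FLAG_IP library its log2 ratio was 0.67 and it was not called. Snrnp48 had 26.7 and 27.6 CPM in FLAG_Input and 53.6 and 45.7 CPM in FLAG_IP (log2 ratio 0.87, adjusted p = 0.049). Without the first FLAG_IP library its log2 ratio was 0.71 and it was not called. Prpf4 lost its call in 9 of 17 alternatives and Snrnp48 in 11. In the control lysates the ratios were −0.13 and −0.18 for Prpf4 and 0.58 and 0.02 for Snrnp48. Snrnp35 and Snrpd2 had the other high FLAG ratios, 2.02 and 1.26, on low inputs of 0.638 to 1.30 and 2.97 to 4.0 CPM, and were not called (adjusted p = 0.11 and 0.21). Snrpd2 turned to −0.13 without the first FLAG_IP library.

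In the control precipitate, made with the same gel according to its antibody label, 33 of 45 members also had a ratio below 0. No member was called by edgeR between Ctrl_IP and Ctrl_Input, where 2.12% of all features were called higher and 0.00527% lower. The member median was −0.35 against 0.12 over all features, and 2 members had an unadjusted p under 0.05. DESeq2 called 1 member higher and none lower, where 7.08% and 0.0369% of all features were called. The fit with the lysate as a block also called 1 higher and none lower (7.57% and 0.0949% of all features). With limma 1 was called higher and 7 lower (0.936% and 2.46% of the 14310 features it tested). The member called higher in all 3 was Cdc5l.

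The FLAG over Ctrl difference of the IP over Input ratio sets the tagged precipitate against the control, whose treatment is uncertain as described above. It called 0% of the 18972 features by edgeR, with 996 features and 2 members at an unadjusted p under 0.05. DESeq2 called 2 features and limma 0, with no member among them, and the block on lysate called 10 features and no member. The member median of the difference was −0.31 against 0.02 over all features, and it turned to 0.06 without the first FLAG_IP library, against −0.11 over all features. Both FLAG lysates lay below both Ctrl lysates for 15 of 45 members (22.1% of all features) and above for 5 (21.9% of all features). The 5 above were Snrpa, Prpf4, Snrnp48, Cdc5l and Bcas2.

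By group, the median FLAG ratio was −0.98 for U2 snRNP and U2AF, with 12 of 13 genes below 0, −0.96 for U5 snRNP, with 5 of 5 below 0, and 0.80 for U11/U12, with 3 of 4 above 0. Without the first FLAG_IP library these medians were −0.56, −0.58 and 0.64, beside −0.57 for U4/U6, so that the order of the lowest groups was not resolved. The control ratio of the U11/U12 group was 0.42, with 4 of 4 genes above 0. The lysates were unequal. The member median was −1.21 in the first FLAG lysate and −0.45 in the second, and −0.25 and −0.32 in the Ctrl lysates.

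The ratio also moved with the level in the input. Over all features the median FLAG ratio was 3.75 where the mean input was under 1 CPM and 0.85 from 1 to 10 CPM. It was −0.61 from 10 to 100 CPM and −0.97 from 100 to 1000 CPM. The 22 members with an input of 100 to 1000 CPM had a median of −0.90, and the 18 from 10 to 100 CPM one of −0.25. Without the first FLAG_IP library all features stood at −0.47 from 100 to 1000 CPM and at −0.40 from 10 to 100 CPM, and the members at −0.49 and −0.27. In the Ctrl lysates the members from 100 to 1000 CPM stood at −0.42 and −0.51, against −0.33 and −0.28 over all features. Whether the level in the input set the ratio was not tested.

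**Figure D4:**
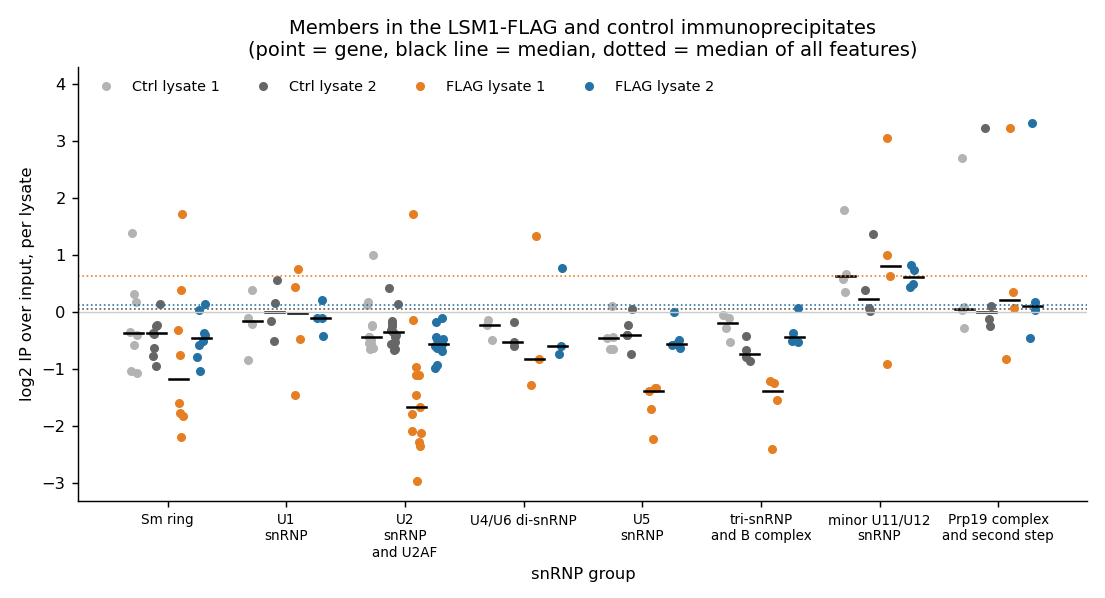
Log2 ratio of IP over Input in each of the 2 Ctrl and 2 FLAG lysates for the 45 members by snRNP group, with a black line at each group's median and dotted lines at the median of all features in each lysate. The first FLAG lysate reaches lowest, and Cdc5l stands at 2.70 to 3.32 in all 4 lysates.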

How the data were processed

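Total RNA-seq (4 libraries) and LSM1-FLAG RIP-seq (8 libraries) of mouse zygotes were used. The authors ran Salmon on RefSeq transcripts and repeats. The submitters' processing notes name Salmon, mm10, FastQC and Trimmomatic, while the published methods name another trimming program. Per the labels the RNA-seq libraries were made with a KAPA stranded kit with ribosomal RNA removal and the RIP-seq libraries with a SMARTer stranded total RNA kit, while the published methods describe amplified, sheared cDNA and another KAPA kit for small amounts of RNA, so that the library method behind the length trend is uncertain and levels of both sets are only set side by side. Each deposited file gave estimated counts (NumReads) and TPM for 37713 features, of which 347 were repeats. Of 37366 transcripts, 37072 matched a gene in RefSeq GRCm38.p6, and 294 were left out. Not whole, at a tolerance of 1e-06, were 55.5% of estimates above 0, and values were rounded to whole counts after summing by gene.

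Fits used edgeR 4.0.16 in R 4.3.3, with filterByExpr, TMM factors and the quasi-likelihood test. The SE of an edgeR log2 fold change was derived as its absolute value divided by the square root of the test's F statistic. Benjamini-Hochberg adjustment ran over all 11335 (RNA-seq) or 18972 (RIP-seq) features and the threshold was 0.05. RNA-seq was fitted on its 4 libraries and RIP-seq on all 8 with 1 mean per group. Ratios per lysate used log2 CPM with a prior count of 2. Alternatives used DESeq2 1.42.0 with and without transcript length factors, limma 3.58.1 on log2(TPM + 1), RLE factors, library totals, no filter, a lowess trend on length, left-out libraries, repeats left out and blocks. The edgeR procedure was tested on simulated data. With 2 libraries a group, small changes can be missed, and intervals and errors cover these libraries alone.

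The methods describe each Input as a portion of the IP lysate, so lysates pair those libraries. The deviations of the replicates correlated at 0.11 (FLAG) and 0.06 (Ctrl). The members, pathway lists and marker lists were chosen with earlier results of these data known. Named in the text were every member called in RNA-seq, the member with the largest change in a group without a call, members called in RIP-seq, the 3 highest and 3 lowest FLAG ratios and Ctrl levels, up to 2 called genes per pathway list and direction, Lsm1 and 2 paralog pairs. Other members were named for their count, length or biology after their values were seen. One gene that this rule would name is not reported here.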

Additional observations from a re-analysis of the deposited data

How the results depend on the processing

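Of the 13 alternatives for Lsm1_KD over Ctrl, Snrpe, Snrpf, U2af2, Zmat2 and Zcrb1 kept their calls in all, and 8 to 13 members were called higher in each. The number called lower was 1, and 0 with the replicate block or 0 to 1 without 1 library. The replicate numbers did not pair the RNA-seq libraries (correlation of deviations −0.11), and the block left 10 of 12 calls, losing Snrnp70 and Prpf19. The crossed pairing, chosen after seeing the data, called 13 members higher and 4 lower. Taking out the length trend moved the member median relative to all features from 0.31 to 0.24 (0.24 to 0.32 without 1 library), and it and limma each called 1 member lower past log2 −1, U2af1 (−1.23) and Sf3b1 (−1.03). Calls over all features ranged from 384 (limma) to 1392 (crossed pairing) higher and from 191 (without the second Lsm1_KD library; 217 with the block) to 1224 lower, with limma moving the median of all features to −0.22. For the inputs the relative member median was −0.16, and −0.21 to −0.06 without 1 library. For FLAG_IP over FLAG_Input, where 3 were called each way, limma and the length trend called 1 member higher (4.47% and 16.8% of all features). The number lower was 11 with DESeq2 (11.6% of all features), 13 with its length factors (11.7%), 8 with library totals (7.18%) and 6 without the filter (7.71%). It was 19 with limma (18.1%), 10 without the length trend (14.3%) and 6 with the lysate as a replicate block (9.98%). Leaving out 1 library gave 0 to 7 higher and 0 to 28 lower, and relative medians of −2.32 to −0.45, with both upper counts and −2.32 reached without the second FLAG_IP library. Library totals moved the median of all features to 1.17, and limma to −0.14. Snrpd2 reversed to −0.18 without the length trend (−0.13 to 1.93 without 1 library). For Ctrl_IP over Ctrl_Input 1 member was called higher with DESeq2, its length factors, library totals, no filter, limma and the lysate block. These fits called 0.69 to 7.57% of all features higher. With limma 7 members were called lower (2.46% of all features). Without 1 library, members were called lower only where a FLAG_IP library, which shares the fit, was left out. The shares called lower over all features were also largest there. The relative median of −0.47 became −0.39 without the filter, −0.36 with limma and −0.47 to −0.26 without 1 library. The FLAG over Ctrl difference called 0 to 3 members higher and 0 to 25 lower without 1 library, the 3 and 25 without the second FLAG_IP library, where 8.3% and 22.2% of all features were called, and its relative median ran from −1.29 to 0.17. Among the RIP-seq members the lysate block lost Snrnp48 and gained Snrpb2, Sf3a2 and Sf3b4 in FLAG and Cdc5l in Ctrl, and changed no other call. The cause of these changes was not tested. Where a group keeps 1 library, that library is assumed to vary like the other groups. With 2 libraries a group, a member without a call is not shown to be unaltered, and Snrpb, Snrpd2, Snrnp25 and Snrnp35 lay at counts too low to resolve a change.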
